A study of Mus musculus with 18 samples.

Results

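The axon guidance ligands and receptors were examined in whole mouse retinas with and without optic nerve crush. They comprise the semaphorins of classes 3 to 7 with their plexin and neuropilin receptors, the ephrins with their Eph receptors, the Slits with their Robo receptors, and the netrins with Dcc and the Unc5 receptors. Members were taken by gene symbol, through the RefSeq accession of each array probe, and were kept where the retinal signal was well above background on at least 3 of 17 arrays. Of 70 matching symbols 69 were on the array, with 89 probes, and 65 genes were kept, out of 25371 genes tested in all. Sema3d, Ntn4, Ntn5 and Unc5d were not kept, and Plxna4os1, an antisense transcript, had no probe. The threshold fell between Sema3d, well above background on 2 arrays, and Ntn1, on 5. Of the 65 genes 60 passed on all 17 arrays.

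All mice carried DLKlox, a floxed form of Map3k12, the gene of dual leucine zipper kinase or DLK, which relays axon injury signals to JNK, and all were given tamoxifen at 10 to 12 weeks of age. Retinas were collected 3 days after the crush. The groups were crushed retinas of Cre-positive mice (5 arrays), uncrushed retinas of Cre-positive mice (5 arrays), crushed retinas of Cre-negative mice (3 arrays) and uncrushed retinas of Cre-negative mice (4 arrays), the uninjured eye being the control. Cre-positive mice, DLKlox/lox, also carried a tamoxifen-inducible Cre-ERT transgene under the CAG promoter, and Cre-negative mice were littermates without it. The CAG promoter is active in many tissues, so deletion was not restricted to neurons, and the labels report that some DLK protein remained. Another array, from a Cre-negative mouse, was called uncrushed in its title and crushed in its description and entered none of the 4 groups. The labels tie no crushed retina to an uncrushed retina of the same mouse and do not state that arrays came from separate mice, so p-values measure only the spread between these samples. The arrays lay on 5 slides, of which slide 1 held only Cre-positive and slide 5 only Cre-negative mice. All crushed arrays of the 4 groups lay at position 2 or 4 of a slide and all uncrushed arrays at position 1 or 3. Crush therefore cannot be told apart from position, either within slides or with slide as a block. The retinal RNA carried Cy5 and a commercial pool of mouse reference RNA carried Cy3, and every value is log2 of Cy5 over Cy3 for the gene's brightest probe. Such a value says how a gene in retina stands against the same gene in the reference. The dyes were not swapped on any array, so a fixed dye effect on a gene cannot be told apart from a difference in abundance. Values of different genes are not levels that can be set against each other.

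Guidance ligands are secreted or membrane-bound proteins that attract or repel growing axons through receptors on the growth cone. Class 3 semaphorins mostly signal through neuropilin and plexin complexes, ephrins through Eph receptor tyrosine kinases, Slits through Robos, and netrins through Dcc for attraction and Unc5 for repulsion. In the developing visual system they direct ganglion cell axons out of the eye, across or away from the midline, and to their place in the brain, and several stay expressed in adult retina.

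The arrays had 68.0% to 75.5% of probes well above background in the retinal channel, and replicate arrays correlated at r of 0.982 to 0.996 across probes. Rod markers lay 3.68 to 7.65 above the reference in every group mean, so the main cell type of the labelled tissue was present. Map3k12 averaged 2.04 ± 0.20 in Cre-positive crushed, 2.0 ± 0.16 in Cre-positive uncrushed, 2.51 ± 0.17 in Cre-negative crushed and 2.43 ± 0.16 in Cre-negative uncrushed retinas (SD, n = 5, 5, 3 and 4). Its difference between genotypes was -0.47 in crushed retinas (adjusted p = 0.061, limma) and -0.43 in uncrushed retinas (adjusted p = 0.88, limma). Those p-values are adjusted over all genes tested. For Map3k12 alone, the floxed gene, the unadjusted p was 0.00092 in crushed and 0.00098 in uncrushed retinas (limma). Uncrushed arrays ran from 1.77 to 2.17 in Cre-positive and from 2.21 to 2.58 in Cre-negative retinas, without overlap. Crushed arrays ran from 1.84 to 2.34 in Cre-positive and from 2.32 to 2.61 in Cre-negative retinas, and overlapped. In 2 Cre-positive arrays markers of the lens or of the cornea, iris and ciliary body stood apart. The mean of 7 cornea, iris and ciliary body markers was 2.20 in uncrushed replicate 4. It was -0.06 in Cre-positive uncrushed replicate 2 and -0.92 to -0.43 on the other 15 arrays. The mean of 11 lens markers was 1.53 in Cre-positive crushed replicate 5, against 0.16 to 0.68 on the other 16 arrays, and the array with disagreeing labels, outside the groups, had 1.25.

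Before any comparison of groups, the family divided into genes with more signal in retina than in the reference and genes with less. Of the 65 genes 39 (60%) were above the reference on all 17 arrays and 20 (30.8%) below it on all 17, against 42.1% and 33.1% of all genes tested. The remaining 6 genes, Sema3b, Sema3g, Sema6c, Efna5, Ephb2 and Robo3, had arrays on both sides of 0. The 6 highest medians all belonged to receptors. These were Unc5a, a repulsive netrin receptor, at 5.40 (42.3-fold), Robo2, a Slit receptor of ganglion cell axons, at 4.57, Ephb1, the receptor of ipsilaterally projecting ganglion cells, at 4.14, Plxna2 at 3.79, Epha4 at 3.27 and Dcc, the netrin receptor needed for axons to leave the eye, at 3.18. The other Dcc probes were well above background in retina on only 0 and 1 of 17 arrays, so all Dcc values rest on its brightest probe alone.

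**Figure D1:**
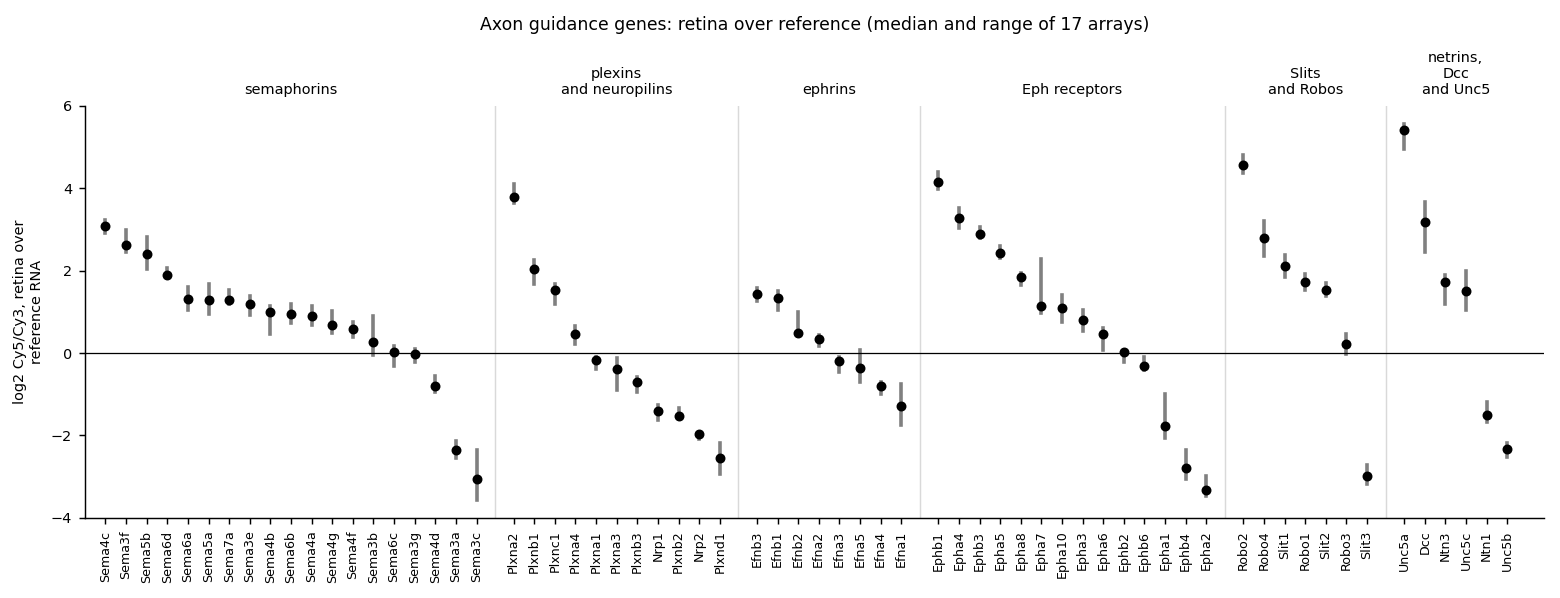
Each point is the median over 17 arrays of log2 Cy5 over Cy3 for an axon guidance gene, grouped by family on the horizontal axis, and each bar spans the lowest to the highest array. Unc5a lies highest at 5.40 and Epha2 lowest at -3.32, and the array ranges are narrow beside the differences from 0 for most genes.

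Every family had members on either side of the reference. Of the semaphorins 13 of 19 were above it on every array, led by Sema4c at 3.07, Sema3f at 2.61 and Sema5b at 2.41, while Sema3c, at -3.05, and Sema3a, the classical growth cone repellent, at -2.34, were below. Plexins and neuropilins had the most members below the reference, 7 of 11, with Plxnd1, the receptor of Sema3e, at -2.56, Nrp2 at -1.97 and Nrp1 at -1.41. Ephrins ranged from 1.43 for Efnb3 to -1.28 for Efna1, with 4 of 8 above the reference on every array. Among Eph receptors 9 of 14 were above it, and Epha2, at -3.32, Ephb4, at -2.78, and Epha1, at -1.76, were below. Of those 9, Epha6, Epha3 and Epha10 had the reference well above background on only 0, 2 and 3 arrays, so their ratios rest on a dim reference channel. Of the Slit and Robo genes 5 of 7 were above the reference, including Slit1 at 2.12, Slit2 at 1.52 and the endothelial receptor Robo4 at 2.78, while Slit3 was at -2.99. Of the netrin group Ntn3 was at 1.71 and the repulsive receptor Unc5c at 1.50, with Unc5b at -2.33 and Ntn1 at -1.49, the last well above background on only 5 arrays. For Unc5c the reference was well above background on only 8 arrays. These ratios describe retina against this reference pool, without a dye swap, and carry no test.

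Crush was set against no crush within each genotype, and a gene was called at an adjusted p under 0.05 over all genes tested (limma, Benjamini-Hochberg). After crush 0 of 65 guidance genes were called in Cre-positive retinas and 2 of 65 (3.08%) in Cre-negative retinas, where ephrin-A1 (Efna1) and the receptor Epha2 rose, against 1.34% of all genes called as higher there. Of all genes 0.769% were called in Cre-positive and 2.15% in Cre-negative retinas, so neither count stands far from that of the array as a whole. At an unadjusted p under 0.05, 11 of 65 members (16.9%) passed in Cre-positive and 15 (23.1%) in Cre-negative retinas, against 9.55% and 13.4% of all genes. Median log2 differences of the members were -0.01 in Cre-positive and -0.03 in Cre-negative retinas, beside all-gene medians of 0.00051 and 0.0015. The 95% interval lay within 2-fold either way for all 65 members in Cre-positive retinas and for 64 in Cre-negative retinas, the exception being Sema3c. In a whole retina, fewer cells of a type and less RNA per cell cannot be told apart.

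**Figure D2:**
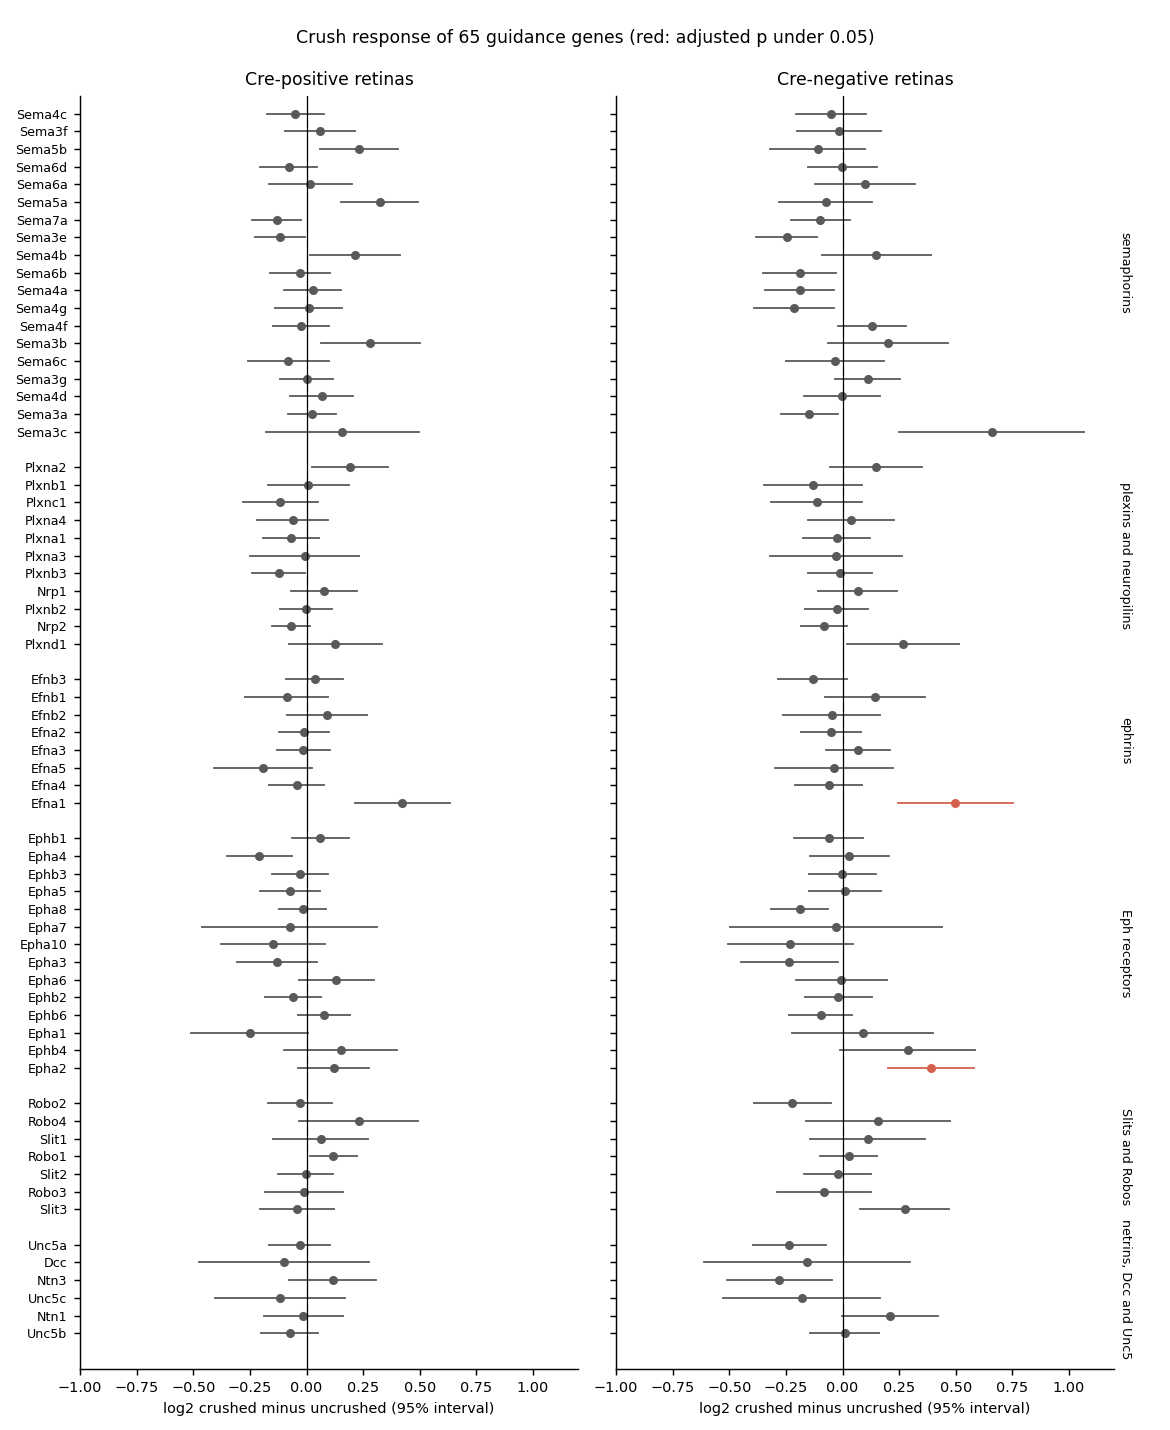
Points are log2 differences of crushed minus uncrushed retinas for the 65 guidance genes, in Cre-positive retinas at left and Cre-negative retinas at right, with 95% intervals from limma and families set apart down the page. Efna1 at 0.50 and Epha2 at 0.39 in Cre-negative retinas are the 2 genes past adjusted p 0.05.

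Efna1 (probe accession NM_010107) encodes a membrane-anchored ephrin that binds EphA receptors, Epha2 among them. Efna1 stood at -1.16, -1.28, -0.95, -1.21 and -0.75 in Cre-positive crushed retinas, against -1.34, -1.73, -1.25, -1.63 and -1.51 in Cre-positive uncrushed retinas. In Cre-negative mice its values were -1.12, -1.17 and -1.02 in crushed retinas, against -1.59, -1.52, -1.73 and -1.58 in uncrushed retinas. The groups did not overlap in Cre-negative mice, and in Cre-positive mice 1 crushed array lay below the highest uncrushed array. Efna1 rose by 0.50 in Cre-negative retinas (SE 0.12, 1.41-fold, adjusted p = 0.035, limma). In Cre-positive retinas the difference was 0.42 (SE 0.10, adjusted p = 0.061, limma), and the interaction was -0.07 (SE 0.16, adjusted p = 0.93, limma). Within slides it was positive on 4 of 4 slides in Cre-positive retinas (0.23 to 0.59) and on 3 of 3 in Cre-negative retinas (0.46 to 0.55). Position on the slide went with crush in all of these comparisons. With slide as a fixed block Efna1 passed the threshold in both genotypes, at 0.42 in Cre-positive retinas (adjusted p = 0.045, limma) and 0.48 in Cre-negative retinas (adjusted p = 0.038, limma), and the Cre-positive difference passed in 5 of 32 alternatives. Leaving out any of the 7 Cre-negative arrays ended the call, with differences of 0.46 to 0.53 and adjusted p of 0.058 to 0.16. The highest Efna1 value came from the Cre-positive crushed array rich in lens markers. Without that array and the array rich in cornea, iris and ciliary body markers the Cre-positive difference was 0.31 (adjusted p = 0.36, limma).

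Epha2 (probe accession NM_010139) encodes a receptor tyrosine kinase known best from epithelia and blood vessels. Its values were -3.19, -3.20, -3.19, -3.39 and -3.04 in Cre-positive crushed retinas, against -3.43, -3.34, -3.46, -3.02 and -3.35 in Cre-positive uncrushed retinas. Cre-negative retinas had -2.99, -3.0 and -2.99 after crush, against -3.45, -3.38, -3.38 and -3.32 without. The Cre-negative groups were apart by more than their whole spread, while the Cre-positive groups overlapped. Epha2 rose by 0.39 in Cre-negative retinas (SE 0.09, 1.31-fold, adjusted p = 0.027, limma), and the difference in Cre-positive retinas was 0.12 (SE 0.07, adjusted p = 0.64, limma). The interaction was -0.27 (SE 0.12, adjusted p = 0.56, limma), so a difference between genotypes in the response to crush was not established. Within slides it was positive on 3 of 4 slides in Cre-positive retinas (-0.052 to 0.40) and on 3 of 3 in Cre-negative retinas (0.33 to 0.39). Leaving out 1 Cre-negative array at a time kept the difference at 0.37 to 0.41, and the call held in 1 of 7 cases, without uncrushed replicate 4, with adjusted p of 0.039 to 0.10. The call was also lost with slide as a fixed block, at 0.38 (adjusted p = 0.098, limma). The highest Cre-positive uncrushed value, -3.02, came from the array rich in cornea, iris and ciliary body markers. Without that array the Cre-positive difference was 0.20 (adjusted p = 0.25, limma). The highest Cre-positive crushed value, -3.04, was on the array rich in lens markers, which stayed in that fit.

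**Figure D3:**
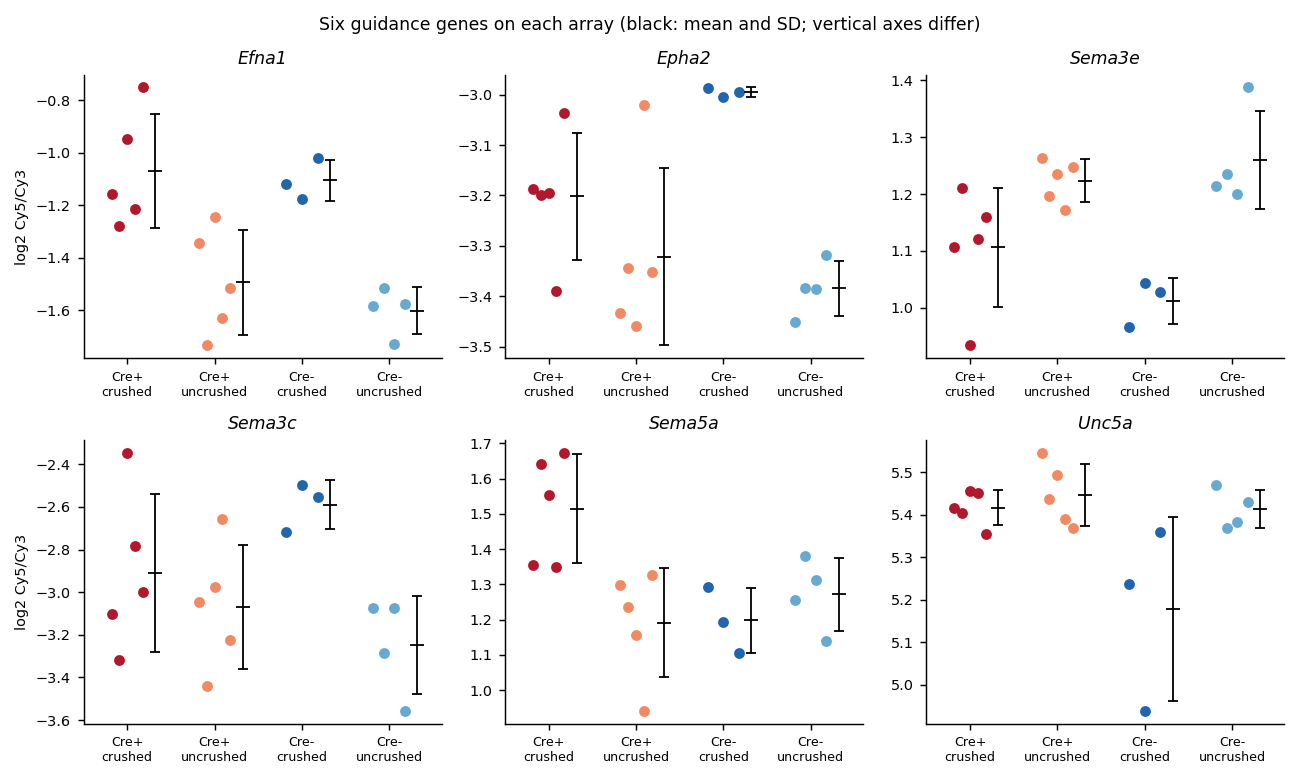
Each dot is log2 Cy5 over Cy3 of a gene on 1 array, in the order Cre-positive crushed (5 arrays), Cre-positive uncrushed (5), Cre-negative crushed (3) and Cre-negative uncrushed (4), with black bars for the mean and SD and a vertical scale for each gene. Efna1 is higher in crushed than in uncrushed Cre-negative retinas with no overlap, and the crushed Cre-negative Epha2 values lie within 0.02 of each other.

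The promoter windows of both genes are printed because they were the 2 called members. Each runs from 250 bases before to 50 bases after a RefSeq transcript start on build GRCm38.p6, and 56 of 65 members had such a window. Efna1 has 2 windows on the minus strand, chr3:89280902-89281201 (first) and chr3:89279596-89279895 (second), and Epha2 has 1 on the plus strand, chr4:141300971-141301270. Capitals mark matches to any of 4 motifs, searched on both strands: AP-1 as TGANTCA, the cAMP response element (CRE) as TGACGTCA, STAT as TTCNNNGAA, and the composite C/EBP-ATF element as TGATGNAA.
Epha2: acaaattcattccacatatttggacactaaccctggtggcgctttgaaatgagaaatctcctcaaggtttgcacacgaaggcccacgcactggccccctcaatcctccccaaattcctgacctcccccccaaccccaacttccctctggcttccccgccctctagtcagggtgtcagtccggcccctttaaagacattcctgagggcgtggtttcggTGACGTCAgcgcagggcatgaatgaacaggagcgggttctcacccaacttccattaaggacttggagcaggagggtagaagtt
Efna1, first: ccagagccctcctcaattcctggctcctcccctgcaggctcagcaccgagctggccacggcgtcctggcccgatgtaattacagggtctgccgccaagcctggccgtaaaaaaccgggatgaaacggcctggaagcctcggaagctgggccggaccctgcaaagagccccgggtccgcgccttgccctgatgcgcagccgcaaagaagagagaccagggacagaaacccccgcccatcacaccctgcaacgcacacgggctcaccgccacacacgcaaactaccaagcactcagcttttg
Efna1, second: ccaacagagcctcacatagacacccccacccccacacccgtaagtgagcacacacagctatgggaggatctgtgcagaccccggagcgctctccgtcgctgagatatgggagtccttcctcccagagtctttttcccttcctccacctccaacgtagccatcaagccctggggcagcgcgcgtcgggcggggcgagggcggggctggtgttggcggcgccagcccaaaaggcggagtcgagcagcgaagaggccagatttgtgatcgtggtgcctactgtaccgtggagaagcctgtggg
The Epha2 window holds 1 match, a CRE beginning 33 bases before the transcript start, and the Efna1 windows hold none of the 4 motifs. CRE matches occur in 1.79% of all 32851 windows of the same length, AP-1 matches in 7.81%, STAT matches in 8.3% and C/EBP-ATF matches in 3.97%. Among the 72 windows of members CRE was found in 1, AP-1 in 3, STAT in 3 and C/EBP-ATF in 0. A match is a description of the sequence and not a binding site.

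The other ephrins and Eph receptors gave no call after crush in either genotype. Efna5, a ligand that maps ganglion cell axons onto their targets, averaged -0.44 ± 0.17 in Cre-positive crushed and -0.25 ± 0.19 in Cre-positive uncrushed retinas (SD, n = 5 each), and -0.42 ± 0.22 in Cre-negative crushed and -0.38 ± 0.13 in Cre-negative uncrushed retinas (SD, n = 3 and 4). Efnb2, the midline ligand at the optic chiasm, differed by 0.09 in Cre-positive and -0.05 in Cre-negative retinas, each smaller than the larger SD of the 2 groups compared. Its receptor Ephb1 differed by 0.06 in Cre-positive and -0.06 in Cre-negative retinas, and Ephb2 by -0.06 and -0.02. Epha4 had the smallest p of the Eph receptors in Cre-positive retinas, with values of 3.16, 3.16, 3.04, 3.27 and 3.22 after crush, against 3.34, 3.25, 3.52, 3.46 and 3.32 without. Those groups overlapped at 1 array each, and the difference was -0.21 (SE 0.07, adjusted p = 0.25, limma). Epha8 was at 1.80, 1.64 and 1.74 in Cre-negative crushed retinas, against 1.94, 1.94, 1.88 and 1.90 in Cre-negative uncrushed retinas, a difference of -0.19 (SE 0.06, adjusted p = 0.14, limma) with no overlap.

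The semaphorins gave no call after crush, and their differences ran from -0.13 to 0.32 in Cre-positive retinas and from -0.25 to 0.66 in Cre-negative retinas. Sema3e, a secreted ligand that binds Plxnd1 without a neuropilin, came nearest to a call. Its values were 1.11, 1.21, 0.93, 1.12 and 1.16 in Cre-positive crushed retinas, against 1.26, 1.20, 1.23, 1.17 and 1.25 in Cre-positive uncrushed retinas. In Cre-negative mice they were 0.97, 1.04 and 1.03 after crush, against 1.22, 1.24, 1.20 and 1.39 without. The Cre-negative groups did not overlap and the Cre-positive groups did. The difference was -0.12 in Cre-positive retinas (SE 0.05, adjusted p = 0.50, limma) and -0.25 in Cre-negative retinas (SE 0.06, adjusted p = 0.054, limma), and it was negative on 4 of 4 and 3 of 3 slides. The Cre-negative difference passed the threshold in 6 of 32 alternatives, among them slide as a random block (adjusted p = 0.045, limma) and array weights (adjusted p = 0.0088, limma), and its adjusted p ran up to 0.45. Its receptor Plxnd1 differed by 0.13 in Cre-positive retinas and by 0.27 (SE 0.12, adjusted p = 0.32, limma) in Cre-negative retinas.

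Sema3c, a neuropilin ligand, had the largest difference of any member after crush in Cre-negative retinas and also a large spread. It was at -2.72, -2.50 and -2.55 in Cre-negative crushed retinas, against -3.07, -3.29, -3.07 and -3.56 in Cre-negative uncrushed retinas. The Cre-negative groups did not overlap, and the difference was 0.66 (SE 0.19, 95% interval 0.25 to 1.07, adjusted p = 0.097, limma). With slide as a fixed block it passed the threshold, at 0.65 (adjusted p = 0.016, limma). In Cre-positive retinas Sema3c ranged from -3.32 to -2.35 after crush and from -3.44 to -2.65 without, a difference of 0.16 (SE 0.16, adjusted p = 0.79, limma). Another Sema3c probe was well above background on only 2 arrays and was not kept. Sema3a differed by 0.02 in Cre-positive and -0.15 (adjusted p = 0.28, limma) in Cre-negative retinas, and Sema7a, a membrane-anchored semaphorin that binds Plxnc1, by -0.13 (adjusted p = 0.41, limma) and -0.10 (adjusted p = 0.55, limma).

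Sema5a, a transmembrane semaphorin that restrains neurite growth in the developing retina through class A plexins, was the member with non-overlapping groups after crush in Cre-positive retinas. It was at 1.36, 1.64, 1.55, 1.35 and 1.67 in Cre-positive crushed retinas, against 1.30, 1.24, 1.16, 0.94 and 1.33 in Cre-positive uncrushed retinas. Cre-negative retinas had 1.29, 1.19 and 1.11 after crush, against 1.25, 1.38, 1.31 and 1.14 without, and these overlapped. The difference was 0.32 in Cre-positive retinas (SE 0.08, adjusted p = 0.084, limma) and -0.07 in Cre-negative retinas (SE 0.10, adjusted p = 0.82, limma). The lowest value, 0.94, was on the array rich in cornea, iris and ciliary body markers and the highest, 1.67, on the array rich in lens markers, and without both arrays the Cre-positive difference was 0.22 (adjusted p = 0.50, limma). Its relative Sema5b differed by 0.23 in Cre-positive retinas (adjusted p = 0.33, limma) and by -0.11 in Cre-negative retinas (adjusted p = 0.71, limma).

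Among plexins and neuropilins no gene was called. Plxna2, a receptor of class 6 semaphorins, differed by 0.19 in Cre-positive retinas (SE 0.08, adjusted p = 0.45, limma) and by 0.15 in Cre-negative retinas (SE 0.10, adjusted p = 0.55, limma). Plxna4 differed by -0.06 and 0.04, Nrp1 by 0.08 and 0.07, and Nrp2 by -0.07 and -0.08 in Cre-positive and Cre-negative retinas. For each of these 4 genes crushed and uncrushed arrays overlapped in both genotypes.

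The Slits, Robos, netrins, Dcc and Unc5 receptors also gave no call after crush. Slit3 was at -2.84, -2.80 and -2.78 in Cre-negative crushed retinas, against -2.99, -3.04, -3.13 and -3.17 in Cre-negative uncrushed retinas. The groups were apart, and the difference was 0.27 (SE 0.09, adjusted p = 0.17, limma), against -0.04 in Cre-positive retinas (SE 0.08, adjusted p = 0.90, limma). Slit1 and Slit2, the ligands of ganglion cell axons at the midline, differed by 0.06 and -0.0036 in Cre-positive retinas and by 0.11 and -0.02 in Cre-negative retinas. For their receptor Robo2 the differences were -0.03 in Cre-positive and -0.22 in Cre-negative retinas (SE 0.08, adjusted p = 0.22, limma), and a second Robo2 probe gave 0.05 and -0.30.

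Unc5a stood at 5.42, 5.40, 5.46, 5.45 and 5.35 in Cre-positive crushed retinas, against 5.55, 5.44, 5.49, 5.39 and 5.37 in Cre-positive uncrushed retinas. In Cre-negative retinas it was at 5.24, 4.94 and 5.36 after crush, against 5.47, 5.37, 5.38 and 5.43 without. The Cre-negative groups did not overlap, but crushed replicate 2 lay well below the other 2 crushed arrays, and the difference was -0.23 (SE 0.08, adjusted p = 0.15, limma). That array also had the lowest Dcc value of the 17 arrays, 2.46, and the lowest Ntn3 value, 1.20. Dcc differed by -0.10 in Cre-positive retinas (SE 0.18) and by -0.16 in Cre-negative retinas (SE 0.22), and Unc5c by -0.12 (SE 0.14) and -0.18 (SE 0.16), all with adjusted p above 0.7. Ntn1 differed by -0.01 in Cre-positive and 0.21 in Cre-negative retinas (adjusted p = 0.38, limma), on a probe near background.

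Complete separation of groups was counted as a second description. Crushed and uncrushed arrays did not overlap for 1 of 65 members in Cre-positive retinas, against 2.09% of all genes, and for 16 of 65 (24.6%) in Cre-negative retinas, against 15.4% of all genes, where the groups are smaller. Of those 16 genes 6 were higher after crush, where 8.82% of all genes were (Efna1, Epha2, Ephb4, Sema3c, Sema4f and Slit3), and 10 were lower, where 6.61% of all genes were (Efnb3, Epha3, Epha8, Ntn3, Plxnb1, Sema3a, Sema3e, Sema4a, Sema6b and Unc5a). Of these 16, Efna1 and Epha2 were called. A mean of the crush responses of both genotypes, chosen after seeing the data, called 3 of 65 members, against 3.56% of all genes. By that mean Efna1 was higher by 0.46 (SE 0.08, adjusted p = 0.0016, limma) and Epha2 by 0.25 (SE 0.06, adjusted p = 0.017, limma), and Sema3e was lower, with a log2 difference of -0.18 (SE 0.04, adjusted p = 0.017, limma).

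The question of whether loss of DLK changes the response of these genes was put to the interaction term. It called 0 of 65 members, against 0.418% of all genes, and 9 of 65 (13.8%) had an unadjusted p under 0.05, against 8.42%. Its smallest p among members was that of Sema5a, at 0.40 (SE 0.13, adjusted p = 0.34, limma). Ntn3 was next among the family leaders, at 0.39 (SE 0.14, adjusted p = 0.43, limma), and its 4 group means were 1.74 in Cre-positive crushed, 1.63 in Cre-positive uncrushed, 1.50 in Cre-negative crushed and 1.78 in Cre-negative uncrushed retinas. Slit3 gave -0.32 (SE 0.12, adjusted p = 0.47, limma), Efnb3 0.17 (SE 0.09, adjusted p = 0.67, limma) and Plxnb3 -0.11 (SE 0.09, adjusted p = 0.77, limma). Plxnb3 was well above background in retina on only 10 arrays. The interval of the interaction exceeded 2-fold for 1 member, Sema3c.

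Cre-positive and Cre-negative retinas were also compared directly. In crushed retinas 0 of 65 members were called, against 1.15% of all genes, and 11 (16.9%) had an unadjusted p under 0.05, against 13.9%. Sema5a averaged 1.51 ± 0.15 in Cre-positive crushed and 1.20 ± 0.09 in Cre-negative crushed retinas (SD, n = 5 and 3), a difference of 0.32 (SE 0.09, adjusted p = 0.12, limma). Unc5a averaged 5.42 ± 0.04 and 5.18 ± 0.22 in the same groups, a difference of 0.24 (SE 0.07, adjusted p = 0.14, limma). Sema3a averaged -2.30 ± 0.10 and -2.49 ± 0.05, a difference of 0.19 (SE 0.06, adjusted p = 0.13, limma). Epha2 differed by -0.21 (SE 0.09, adjusted p = 0.29, limma), Efnb2 by 0.22 (SE 0.10, adjusted p = 0.32, limma) and Slit3 by -0.16 (SE 0.09, adjusted p = 0.45, limma). Arrays of the crushed groups did not overlap for 7 of 65 members (10.8%), against 10.3% of all genes.

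In uncrushed retinas 0 of 65 members were called between genotypes, against 0.0118% of all genes, and 5 (7.69%) had an unadjusted p under 0.05, against 5.59%. The interval lay within 2-fold for all 65 members. The family leaders by p were Efna3 (0.15), Epha1 (0.29), Sema4g (-0.19), Robo1 (-0.12), Ntn3 (-0.15) and Plxnb3 (0.09), each with an adjusted p of 0.88 or more. Arrays of the uncrushed groups did not overlap for 1 of 65 members (1.54%), Epha1, against 1.97% of all genes. For Epha1 the Cre-positive uncrushed arrays ran from -1.76 to -1.0, and the value of -1.0 was again on the array rich in cornea, iris and ciliary body markers.

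Pathway genes outside these families were read against the same shares of all genes. Of 31 other guidance cues and receptors measured, 0 were called after crush in Cre-positive retinas, against 0.769% of all genes, and 2 (6.45%) in Cre-negative retinas, against 2.15%. At an unadjusted p under 0.05, 3 (9.68%) passed in Cre-positive retinas, against 9.55% of all genes, and 9 (29.0%) in Cre-negative retinas, against 13.4%. Flrt3, a membrane protein that binds Unc5 and Robo receptors, rose by 0.44 (SE 0.09, adjusted p = 0.0085, limma), and its relative Flrt2, a repulsive Unc5 ligand, fell by 0.27 (SE 0.06, adjusted p = 0.016, limma). In Cre-positive retinas the same genes differed by 0.24 (adjusted p = 0.19, limma) and -0.12 (adjusted p = 0.43, limma). Between crushed retinas of the genotypes 1 of the 31 (3.23%) was called, against 1.15% of all genes. At an unadjusted p under 0.05, 10 (32.3%) passed there, against 13.9%. The called gene was Flrt2, higher by 0.24 in Cre-positive than in Cre-negative crushed retinas (adjusted p = 0.040, limma). Of 44 intracellular effectors of guidance signals 0 were called after crush in either genotype, with 8 (18.2%) at an unadjusted p under 0.05 in Cre-positive retinas, against 9.55% of all genes, and 7 (15.9%) in Cre-negative retinas, against 13.4%. Between crushed retinas of the genotypes 1 of the 44 (2.27%) was called, against 1.15% of all genes, and 6 (13.6%) had an unadjusted p under 0.05, against 13.9%. The called effector, Trio, acts downstream of netrin and Dcc. It was lower in Cre-positive than in Cre-negative crushed retinas, with a log2 difference of -0.43 (SE 0.09, adjusted p = 0.027, limma).

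**Figure D4:**
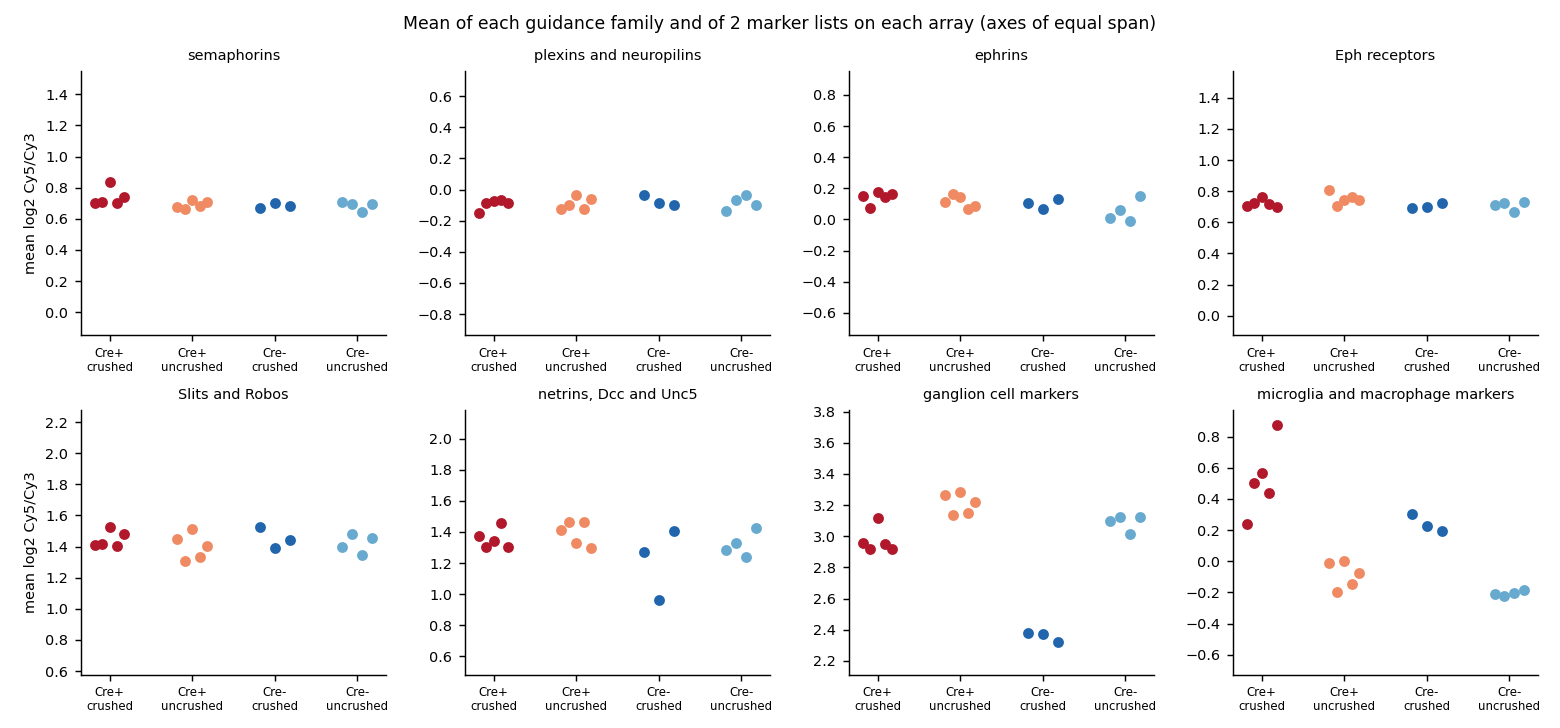
Each dot is the mean log2 Cy5 over Cy3 of a gene family or marker list on 1 array, in the order Cre-positive crushed, Cre-positive uncrushed, Cre-negative crushed and Cre-negative uncrushed, and all vertical axes span the same range. Ganglion cell means lie at 2.32 to 2.38 in crushed retinas of Cre-negative mice, against 3.01 to 3.13 without crush, while the guidance families show no shift of that size.

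Markers of ganglion cells and of microglia moved with crush, while each other marker list gave at most 1 call per genotype. The mean over all 65 guidance genes was 0.63 to 0.71 after crush and 0.63 to 0.67 without in Cre-positive retinas, and 0.59 to 0.64 after crush and 0.58 to 0.65 without in Cre-negative retinas, with every group overlapping the others. Of 14 ganglion cell markers 3 (21.4%) were called lower after crush in Cre-positive and 10 (71.4%) in Cre-negative retinas. Of all genes 0.769% and 2.15% were called in either direction. At an unadjusted p under 0.05, 12 of the 14 ganglion cell markers were lower in each genotype. Their mean was 2.92 to 3.12 after crush and 3.14 to 3.29 without in Cre-positive retinas, and 2.32 to 2.38 after crush and 3.01 to 3.13 without in Cre-negative retinas. Of 11 microglia and macrophage markers 10 (90.9%) were called higher in Cre-positive and 4 (36.4%) in Cre-negative retinas. At an unadjusted p under 0.05, 10 and 9 of the 11 were higher. Their means were 0.24 to 0.87 after crush and -0.20 to -0.00023 without in Cre-positive retinas. In Cre-negative retinas these means were 0.19 to 0.30 after crush and -0.22 to -0.19 without. None of the 13 vascular markers was called after crush in either genotype, with 2 at an unadjusted p under 0.05 in Cre-positive and 1 in Cre-negative retinas. Pigment epithelium markers had overlapping means of 1.53 to 2.82 in Cre-positive crushed and 1.39 to 1.70 in Cre-negative crushed retinas. The log2 difference between these groups was positive for 10 of 10 markers, with a median of 0.67, none was called, and 3 had an unadjusted p under 0.05 (limma). The part of these shifts in the changes of Efna1 and Epha2, and in the differences between genotypes, was not tested.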

How the data were processed

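Per the labels, retinal RNA was hybridised with Cy5 against a Cy3 reference on 2-colour Agilent arrays. The deposited scanner files hold median spot and background intensity in both dyes, unnormalized, and processed intensity values with a log10 ratio of Cy5 over Cy3 from Agilent Feature Extraction 10.7.3.1, per the file headers. The scale of the authors' deposited table is not stated, and it was treated as a log2 ratio of Cy5 over Cy3, since its columns correlated at r of 1.00 with the ratios computed here (slopes of 1.00 to 1.02, medians of 0.015 to 0.0237), and its direction follows the dyes in the labels. The submitters' processing notes name limma, whose settings the sources used here do not give.

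In R 4.3.3 with limma 3.58.1 (with version 1.17.8 of data.table), median intensities were corrected with normexp (offset 50), which pulls ratios of dim spots toward 0, and normalized by loess within arrays. Control and outlier spots were left out and the spots of a probe averaged. A gene was its brightest probe with Cy5 well above background on at least 3 arrays, and symbols came from RefSeq accessions. A mean per group was fitted to 17 arrays (13 residual and 4.48 prior degrees of freedom), with 5 two-sided contrasts adjusted by Benjamini-Hochberg over 25371 genes. Only the contrast for the crush response in Cre-negative retinas was tested on simulated data. Genes named were the called members, the smallest p per family and contrast, and 16 members known from retinal wiring, and any other gene was named after its values were seen. Alternatives varied background correction, normalization, filter, probe choice, slide, array weights and the arrays used. Precision is limited by the number of arrays. Members, lists and this rule were chosen with earlier results of these data known.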

Additional observations from a re-analysis of the deposited data

Results flagged for a closer look

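On 8 of 99 sets of 4 or 5 arrays (8.08%, 33 named members) the highest or lowest array stood apart from the others by Dixon's criterion at 95%, which chance alone meets in about 1 set in 20. Cre-positive uncrushed replicate 4, the array rich in cornea, iris and ciliary body markers, carried 3 of them. There Epha1 was at -1.0 (other arrays -1.76 to -1.55), Epha2 at -3.02 (-3.46 to -3.34) and Plxna3 at -0.90 (-0.39 to -0.24). Efna5 was at 0.079 in Cre-positive uncrushed replicate 2 (-0.40 to -0.29), Robo2 at 4.80 in replicate 3 (4.48 to 4.57) and Ntn3 at 1.86 in replicate 5 (1.55 to 1.61) of the same group. In Cre-negative uncrushed retinas Efnb2 was at 0.62 in replicate 4 (0.41 to 0.42) and Plxnd1 at -2.93 in replicate 1 (-2.60 to -2.54).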

How the results depend on the processing

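The count of called members was recomputed under up to 33 alternatives per comparison. No member was called between genotypes in uncrushed retinas or in the interaction under any of them. After crush in Cre-negative retinas the count of 2, beside 2.15% of all genes, became 0 with the scanner software's log ratio (1.51% of all genes) and with the array of disagreeing labels added as uncrushed (0.288%), and 1 (Robo2, lower) with Cy5 alone (2.2%). It became 4 with array weights (4.77%) and with that array added as crushed (2.94%), both times Efna1, Epha2, Sema3c and Sema3e, and 4 with only the 2 groups in the fit (3.02%), with Slit3 in place of Sema3e. It ran from 0 to 4 with arrays left out in turn. Leaving out crushed replicate 1 or 2 or uncrushed replicate 1, 2 or 3 gave 0, crushed replicate 3 gave 1 (Unc5a), uncrushed replicate 4 gave 1 (Epha2), and Cre-positive crushed replicate 3 gave 4 (Efna1, Epha2, Sema3c and Sema3e), with 1.29% to 2.42% of all genes called. After crush in Cre-positive retinas the count of 0 became 1 (Efna1) with slide as a fixed or random block, and 0 to 2 with arrays left out (1 without crushed replicate 2 or uncrushed replicate 3, 2, Efna1 and Sema5a, without crushed replicate 4). Between crushed retinas of the genotypes it became 1 with Cy5 alone (Sema3a), 1 with the mean over probes (Sema5b) and 0 to 1 with arrays left out (Unc5a, without Cre-negative crushed replicate 3). The calls of Efna1 and of Epha2 each held in 22 of 32 alternatives and kept their direction in 32, at 0.37 to 0.53 and 0.32 to 0.44 (adjusted p 0.0034 to 0.35 and 0.00099 to 0.22). Those alternatives include leaving out Cre-positive arrays, which cannot change these Cre-negative differences or their direction. In the 7 fits without 1 Cre-negative array the Efna1 call held in 0 and the Epha2 call in 1. Signs turned for Efna3 between uncrushed retinas (-0.082 with Cy5 alone), and between crushed retinas for Unc5a (-0.011 with Cy5 alone) and Plxna3 (0.012 with slide as a fixed block). Of 954 medians of families 950 kept within their spread. The causes were not tested, apart from the fewer arrays when some were left out. Leaving out both the array rich in lens markers and that rich in cornea, iris and ciliary body markers left 2 calls in Cre-negative retinas. Both arrays were Cre-positive, so the Cre-negative differences of Efna1 and Epha2 could not change. Only the estimate of spread shared by the groups and the adjustment of p could. That alternative was chosen after seeing the data. No paired analysis was possible because the labels number no replicates and tie no crushed to an uncrushed retina.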

Other observations

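The array with disagreeing labels, uncrushed by title and crushed by description, belongs to no group and was also rich in lens markers, with a mean of 1.25. Its Efna1 value was -0.96, its Epha2 value -3.03 and its Sema3e value 0.88. Cre-negative crushed arrays ran from -1.17 to -1.02, -3.0 to -2.99 and 0.97 to 1.04 for these genes, and Cre-negative uncrushed arrays from -1.73 to -1.52, -3.45 to -3.32 and 1.20 to 1.39. Some members lay outside the ranges of both groups, among them Sema5a at 1.54, Efnb2 at 0.15 and Ephb1 at 3.80. The array's ganglion cell marker mean was 2.26 (2.32 to 2.38 crushed, 3.01 to 3.13 uncrushed). Its microglia and macrophage mean was 0.56 (0.19 to 0.30 crushed, -0.22 to -0.19 uncrushed).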
